A study of Mus musculus with 15 samples.

Results

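Hox genes were examined in cultured mouse heart fibroblast colonies. The members were all genes whose symbol is Hoxa, Hoxb, Hoxc or Hoxd followed only by a number and that have a probe set naming 1 gene. This gave 37 of the 19938 genes tested, each on 1 probe set. They comprised 10 Hoxa, 9 Hoxb, 9 Hoxc and 9 Hoxd genes, which lie on chromosomes 6, 11, 15 and 2. Hoxb8 shares its probe set with Hoxb7 and was left out.

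The 15 arrays came from male C57BL/6 mice aged 12 weeks. SCA1+PDGFRα+CD31- heart cells had been grown as colony-forming fibroblasts, and the colonies were separated by size. There were 5 groups of 3 arrays. Large colonies were untreated and were profiled at passage 5 and at passage 15. Small colonies were profiled untreated at passage 5, with PDGF-AB at passage 5, and with PDGF-AB at passage 15. PDGF-AB is a dimer of platelet-derived growth factor chains, given at 50 ng/ml. The protocol also names the PDGF receptor inhibitor AG1296, but no array here is labelled with it. None of the 15 arrays is from small colonies at passage 15 without PDGF-AB. Colony size and PDGF-AB therefore cannot be told apart at passage 15, nor wherever treated small colonies are set against large ones. The labels do not say whether replicates came from separate mice, cultures or colonies. The p-values below therefore compare groups with the scatter among these arrays, and that scatter may be only technical.

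Hox genes encode transcription factors that bind DNA through a homeodomain, usually together with TALE partners of the Pbx and Meis families. In the embryo they are switched on in the order in which they lie in each cluster, so that low-numbered genes act in the hindbrain and pharyngeal region and high-numbered genes towards the tail and the limb ends. Retinoic acid opens the low-numbered end of the clusters, Polycomb complexes keep clusters silent, and Trithorax proteins keep them active. Fibroblasts keep in culture much of the Hox pattern of the body region they came from, and low-numbered Hox genes are active in part of the embryonic heart field.

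Promoter sequences are shown for Hoxa3 and Hoxa5, because they were the only 2 of the 7 most changed members with an entry in the promoter table used here. Hoxa3 is needed for the thymus and parathyroid, and its level moved in opposite directions with passage in large and in treated small colonies. Hoxa5 acts in the neck and upper chest and in the lung, and its level fell with passage in both. Each window holds 300 bases, from 250 before to 50 after the RefSeq start on the minus strand of GRCm38.p6, at chr6:52213018-52213317 for Hoxa3 and chr6:52204538-52204837 for Hoxa5. The Hoxa3 window lay between the windows of Hoxa6 and Hoxa7 and not next to that of Hoxa2. Whether these cells used that start was not tested. Capitals mark matches to the motifs searched, here read from the opposite strand.
Hoxa3: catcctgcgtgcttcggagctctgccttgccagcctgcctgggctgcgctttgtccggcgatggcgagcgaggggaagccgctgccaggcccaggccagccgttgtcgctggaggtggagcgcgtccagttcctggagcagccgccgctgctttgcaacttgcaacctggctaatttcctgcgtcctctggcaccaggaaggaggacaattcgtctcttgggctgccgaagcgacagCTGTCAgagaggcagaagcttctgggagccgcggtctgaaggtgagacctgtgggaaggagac
Hoxa5: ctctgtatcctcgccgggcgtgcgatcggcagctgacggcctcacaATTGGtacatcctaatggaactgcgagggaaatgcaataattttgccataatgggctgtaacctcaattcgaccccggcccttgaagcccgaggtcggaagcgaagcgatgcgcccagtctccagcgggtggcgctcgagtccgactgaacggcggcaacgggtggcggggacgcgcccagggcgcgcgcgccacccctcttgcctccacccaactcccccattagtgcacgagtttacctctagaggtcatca

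The capitals are a TGACAG match (a Meis-type site) in Hoxa3 and a CCAAT match in Hoxa5. On both strands, TGACAG was found in 19.2% and CCAAT in 37.4% of the 32851 promoters of the table. Among the 23 Hox promoter windows, which cover 21 of the 37 genes, 2 held TGACAG and 14 held CCAAT. The Pbx-Hox type motif TGATTNAT was found in 2 Hox windows and 3.22% of all promoters, and TATAAA in 3 Hox windows and 13.6% of all promoters. Neither of the printed windows held these last motifs. The Hox windows held a median of 15 CG dinucleotides against 7 over all promoters, with 20 in the Hoxa3 window and 29 in the Hoxa5 window. A motif match is a match of letters and no evidence of binding.

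Levels are log2 intensities, so a difference of 1 is a 2-fold change. As a guide to low signal, the 95th percentile of 1178 olfactory and vomeronasal receptor genes lay between 4.79 and 4.99 in the 5 groups. By this guide 19 of the 37 Hox genes were above low signal in every group. They were 8 of 10 Hoxa genes (Hoxa2 to Hoxa7, Hoxa10 and Hoxa13), 8 of 9 Hoxb genes (Hoxb1 to Hoxb7 and Hoxb9), Hoxc13, Hoxd9 and Hoxd11. Another 15 members were above it in no group, and Hoxc4, Hoxc9 and Hoxc12 were above it in some. The signal was therefore mostly in the Hoxa and Hoxb clusters and in their low-numbered and central genes, while most Hoxc and Hoxd genes were close to or under the guide. The guide is not a detection call, and differences given for genes under it are differences between low signals that can understate a change in RNA.

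**Figure D1:**
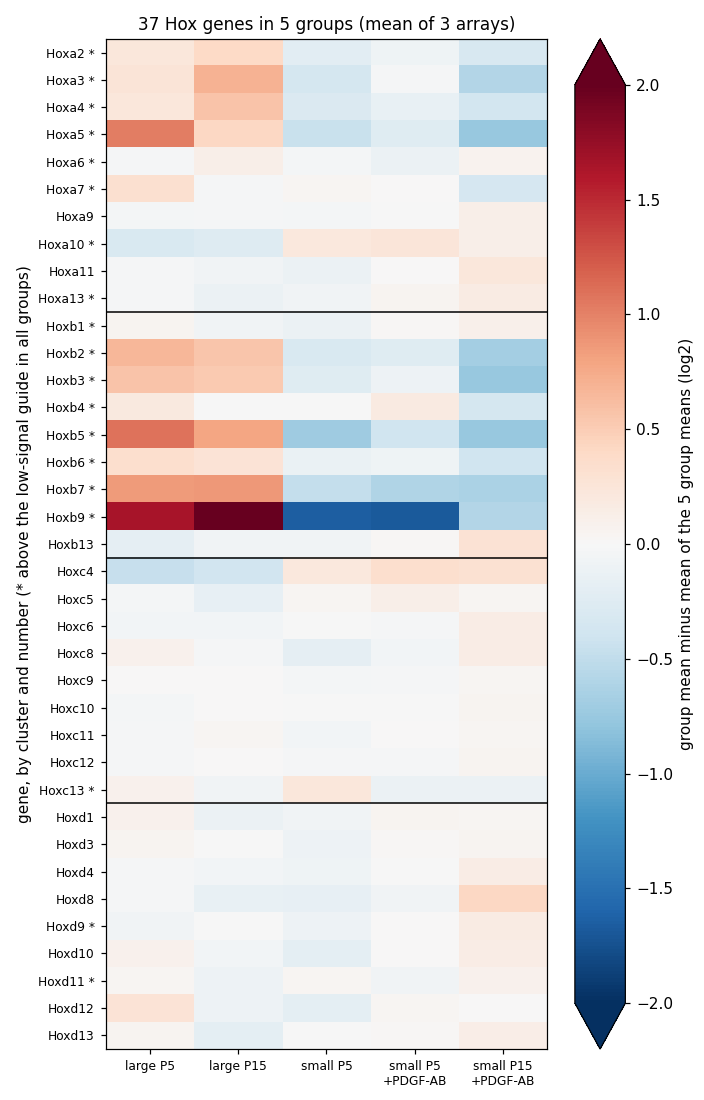
Group means of the 37 Hox genes, each as the difference in log2 intensity from the mean of its own 5 group means. Rows follow cluster and number, columns are the groups, each the mean of 3 arrays, and a star marks the 19 genes above the low-signal guide in every group. The strongest colours are in the Hoxb9 row, where the group means run from 6.36 to 10.31, and most Hoxc and Hoxd rows are pale.

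Arrays of a group correlated at 0.997 to 0.998 over all genes and arrays of different groups at 0.958 to 0.991. Array medians lay between 5.59 and 5.72, and no array stood apart. The labelled cell type was checked with marker genes. All 6 tested stromal markers were above the low-signal guide in every group, with mean levels per array of 9.37 to 11.02. Thy1 was 10.3 in large and 5.11 in untreated small colonies at passage 5, and PDGF-AB-treated small colonies were at 5.19 and 5.49, so its large and small colonies were far apart at either passage. The endothelial list averaged 4.29 to 4.69 per array with 1 of 6 genes, Tie1, above the guide in every group. Cdh5 was also above it in all but treated small colonies at passage 5, and Kdr in large colonies only. Pecam1, the gene of CD31, was below it in every group. The leukocyte list averaged 4.75 to 5.15 with 3 of 6 genes, Cd68, Csf1r and Cd14, above the guide in every group. Ptprc was below it in every group. Cardiomyocyte, pericyte and mesothelial lists averaged 5.36 to 5.94, 5.90 to 6.35 and 5.53 to 6.04, with 5 of 6, 2 of 5 and 5 of 5 members above the guide in every group. The pericyte count was 4 of 5 in large and in untreated small colonies at passage 5. It was 5 in large colonies at passage 15, and 2 and 3 in treated small colonies at passages 5 and 15. The Schwann list averaged 4.64 to 5.07 with 1 of its 2 tested genes above the guide. Between large and untreated small colonies at passage 5 the lists moved in both directions. Higher and lower in large colonies were 2 and 2 of 6 stromal genes, 2 and 2 of 5 pericyte genes, 1 and 1 of 6 cardiomyocyte genes and 1 and 1 of 6 leukocyte genes. They were 2 and 0 of 6 endothelial, 0 and 1 of 5 mesothelial and 0 and 0 of 2 Schwann genes. Of all genes tested, 18.2% were called higher and 18.0% lower in large colonies. The list medians lay between -0.03 and 0.17. Differences of at least 1 were 5.22 for Thy1, 1.17 for Dcn and 2.92 for Rgs5, and -1.95 for Col1a1, -1.75 for Col1a2, -1.86 for Cd14, -1.62 for Tnnt2 and -1.03 for Notch3. The part of these genes' cells in the Hox differences was not tested. In bulk RNA, fewer cells of a type and less RNA per cell cannot be told apart.

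Whether large and small colonies differ without treatment was compared at passage 5. Large colonies had higher Hox signals than small ones, mainly in the Hoxb cluster and the low-numbered Hoxa genes. Of the 37 members, 14 were higher in large colonies and 2 were lower at a limma adjusted p of at most 0.05, when 18.2% and 18.0% of all genes tested were called in those directions (36.2% in either). The calls were 7 higher and 0 lower of 9 Hoxb genes, 5 higher and 1 lower of 10 Hoxa genes, 1 higher and 1 lower of 9 Hoxc genes and 1 higher of 9 Hoxd genes. The remaining Hoxb genes, Hoxb1 and Hoxb13, had differences of 0.17 and -0.11 with adjusted p above the threshold. Called with at least a 2-fold difference were 4 members higher and 0 lower in large colonies, against 1.82% and 2.11% of all genes. The median difference over the 37 members was 0.14 and that over all genes 0.03.

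Hoxb9, which helps to pattern the thoracic segments and ribs, differed most among the members. Its 3 arrays read 9.70, 9.77 and 9.61 in large colonies at passage 5 and 10.36, 10.29 and 10.27 at passage 15. The small colonies read 6.41, 6.45 and 6.32 untreated, 6.32, 6.21 and 6.56 with PDGF-AB at passage 5, and 7.56, 7.44 and 7.37 with PDGF-AB at passage 15. Every large array lay above every small array, the nearest pair being 2.05 apart. The groups ranked large passage 15, large passage 5, treated small passage 15 and then both small groups at passage 5, whose arrays overlapped. At passage 5 large exceeded untreated small colonies by 3.30 (SE 0.08), which is 9.84-fold, with a limma adjusted p of 7.5e-15.

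Hoxb5, a gene of the developing vessels and of the neural crest of the gut, read 7.39, 7.37 and 7.44 in large colonies at passage 5 and 7.16, 7.15 and 6.997 at passage 15. Small colonies read 5.63, 5.46 and 5.71 untreated, 5.93, 6.00 and 5.79 with PDGF-AB at passage 5, and 5.45, 5.77 and 5.45 with it at passage 15. The lowest large array was 0.996 above the highest small array, and the untreated small and the late treated small arrays overlapped. The difference at passage 5 was 1.80 (SE 0.09), or 3.48-fold, with a limma adjusted p of 6.3e-11.

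Hoxa5 read 9.20, 9.25 and 9.20 in large colonies at passage 5 and 8.59, 8.70 and 8.57 at passage 15. In small colonies it read 7.72, 7.74 and 7.81 untreated, 8.01, 8.01 and 7.86 with PDGF-AB at passage 5, and 7.51, 7.48 and 7.35 with PDGF-AB at passage 15. No 2 of the 5 groups overlapped. Large exceeded untreated small colonies at passage 5 by 1.46 (SE 0.06), or 2.75-fold, with a limma adjusted p of 9.1e-12.

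Hoxb7, another trunk gene, read 7.40, 7.44 and 7.41 in large colonies at passage 5 and 7.53, 7.53 and 7.24 at passage 15. Small colonies read 6.04, 6.00 and 6.23 untreated, 6.15, 6.14 and 5.62 with PDGF-AB at passage 5, and 6.10, 5.87 and 5.82 with it at passage 15. The large groups overlapped with each other, as did the 3 small groups, but the lowest large array was 1.01 above the highest small one. At passage 5 the difference was 1.33 (SE 0.12), or 2.51-fold, with a limma adjusted p of 2.2e-07.

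Hoxb2 and Hoxb3, neighbours in the cluster that pattern the hindbrain, differed by less at passage 5. Hoxb2 read 9.60, 9.69 and 9.73 and then, at passage 15, 9.74, 9.44 and 9.54 in large colonies. It read 8.84, 8.78 and 8.53 in untreated small colonies, 8.84, 8.93 and 8.54 with PDGF-AB at passage 5 and 8.37, 8.21 and 8.44 with it at passage 15. Only the late treated small arrays stood below the other small arrays. Hoxb3 read 8.73, 8.69 and 8.52 in large colonies at passage 5 and 8.67, 8.50 and 8.63 at passage 15. Small colonies read 8.00, 7.76 and 7.77 untreated, 8.02, 8.08 and 7.84 with PDGF-AB at passage 5, and 7.43, 7.18 and 7.37 with it at passage 15. As for Hoxb2, the large groups overlapped, both small groups at passage 5 overlapped, and the late treated small arrays were lowest. The passage 5 differences between large and untreated small colonies were 0.96 (SE 0.11) for Hoxb2 and 0.80 (SE 0.09) for Hoxb3, with limma adjusted p of 1.5e-06 and 1.6e-06.

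Hoxa3 read 6.68, 6.93 and 6.65 in large colonies at passage 5 and 7.29, 7.18 and 7.12 at passage 15. In small colonies it read 6.25, 6.05 and 6.14 untreated, 6.48, 6.51 and 6.45 with PDGF-AB at passage 5, and 5.99, 5.83 and 5.94 with PDGF-AB at passage 15. The 5 groups did not overlap, and the late groups were the highest of the large and the lowest of the small colonies. Large exceeded untreated small colonies at passage 5 by 0.60 (SE 0.08), with a limma adjusted p of 1.1e-05.

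**Figure D2:**
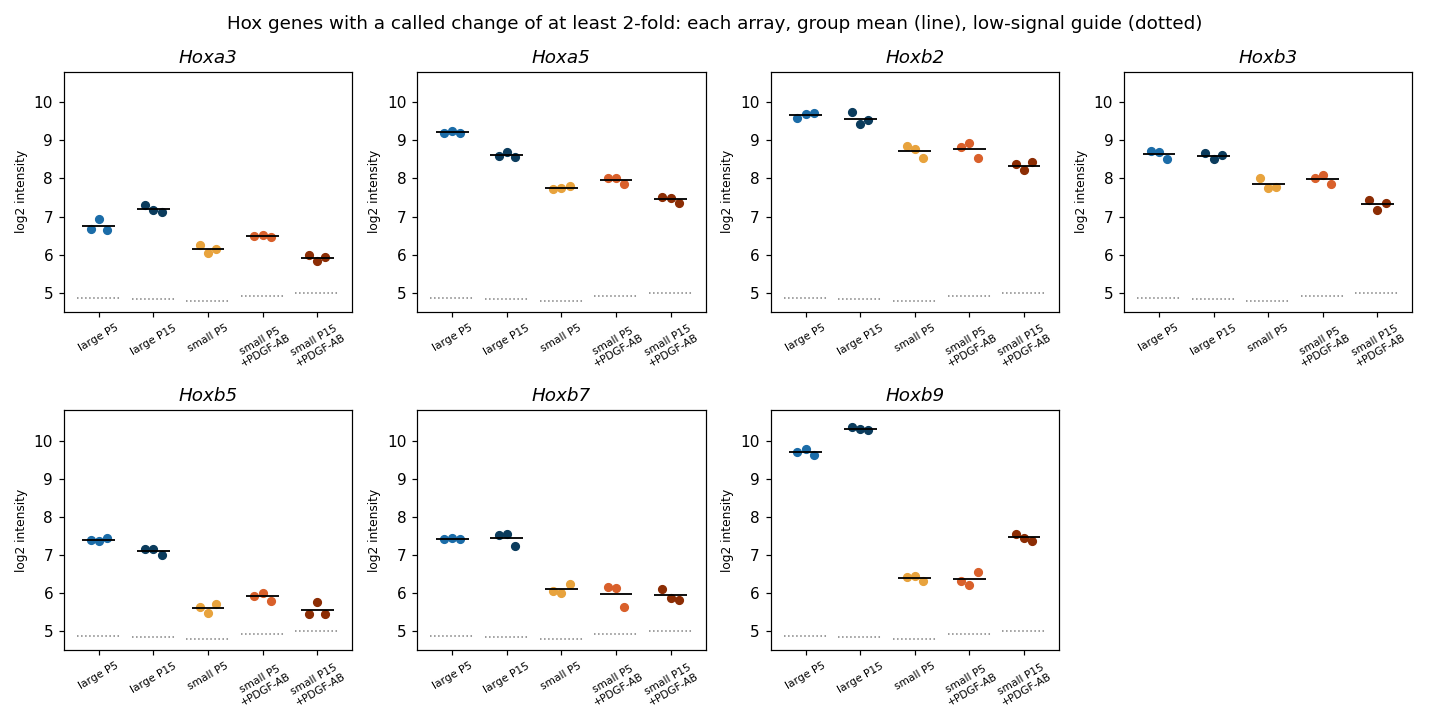
Log2 intensity of the 7 Hox genes with a called change of at least 2-fold in any comparison, 1 panel a gene. Points are single arrays, solid lines are group means of 3 arrays and dotted lines the low-signal guide of that group. In each panel the 6 large-colony arrays lie above the 9 small-colony arrays, with the widest gap, 2.05, for Hoxb9.

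Smaller differences at passage 5 ran the same way in the neighbouring genes. Hoxa2, a gene of the second pharyngeal arch, was higher in large colonies by 0.44 (SE 0.07), Hoxa4 by 0.51 (SE 0.09), Hoxb6 by 0.47 (SE 0.09) and Hoxb4, known for expanding blood stem cells, by 0.20 (SE 0.06). Their limma adjusted p were between 4.3e-05 and 0.0105. Hoxa7 was called higher by 0.28 at an adjusted p of 0.0467, and this call was lost when any 1 of the 6 arrays was left out (adjusted p of 0.0507 to 0.131). The call of Hoxc8, higher by 0.27, was lost without large passage 5 replicate 1 (difference 0.17, limma adjusted p 0.165) and without small passage 5 replicates 1 (0.179) or 3 (0.068). Hoxd12, a limb gene below the guide in all groups, was higher by 0.47 (limma adjusted p 0.000279).

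The 2 members lower in large colonies were Hoxc4 and Hoxa10. Hoxc4, a gene of the neck and upper trunk, read 3.98, 4.27 and 4.41 in large and 4.82, 4.91 and 4.96 in untreated small colonies at passage 5. The groups did not overlap, and the difference in signal was -0.68 (SE 0.11, limma adjusted p 9.5e-05). The large arrays were below the low-signal guide, and against the guide itself small colonies were at least 1.03-fold higher. Hoxa10, a gene of the posterior trunk and uterus, read 5.22, 5.50 and 5.31 in large and 5.56, 6.01 and 6.04 in small colonies. Those groups did not overlap either, and the difference was -0.52 (SE 0.12, limma adjusted p 0.0031).

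Over all 15 arrays, 10 of the 37 Hox genes had every large array above every small array, whatever the passage or treatment, and 6.10% of all genes did. These were Hoxa2 to Hoxa5, Hoxb2, Hoxb3, Hoxb5, Hoxb6, Hoxb7 and Hoxb9. Hoxc4 alone had every large array below every small array, as did 3.00% of all genes. The other 26 members overlapped between the sizes, Hoxb1, Hoxb4 and Hoxb13 among them.

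**Figure D3:**
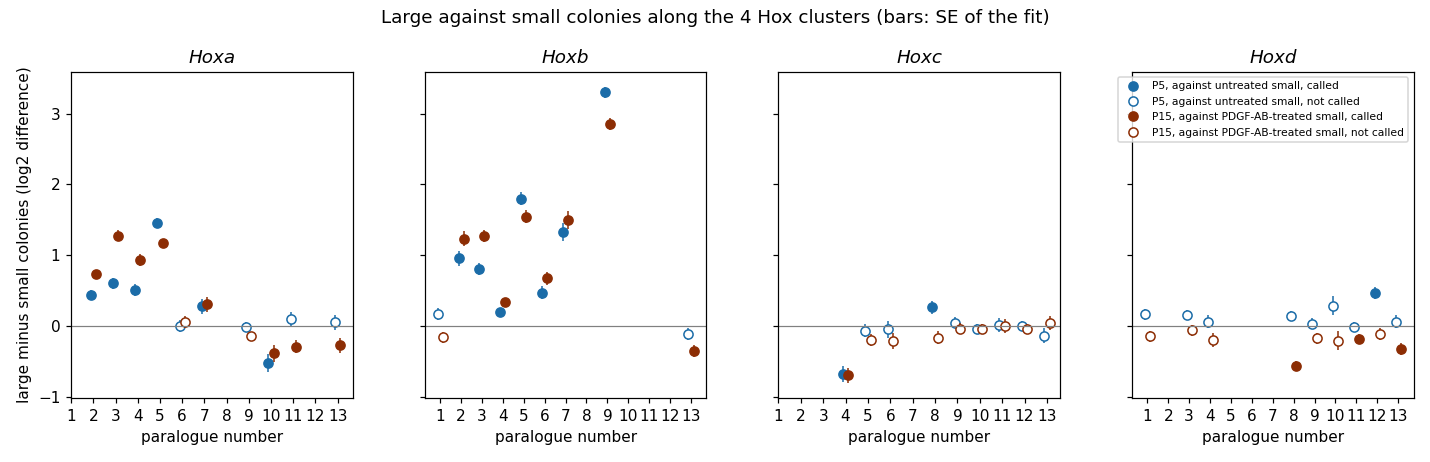
Difference in log2 intensity between large and small colonies for each Hox gene, by cluster and by the gene's number. Blue is passage 5 against untreated small colonies, brown is passage 15 against PDGF-AB-treated small colonies, filled points were called (limma adjusted p at most 0.05), and bars are standard errors. Differences peak at Hoxb9 with 3.30 at passage 5, are above 0 for Hoxa2 to Hoxa5, and lie near 0 for most Hoxc and Hoxd genes.

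The genes around the clusters did not share one direction. Of the 12 nearest tested genes around Hoxb, 2 were higher and 2 lower in large than in untreated small colonies at passage 5, and the median difference was 0.04. Of the 12 around Hoxa, 4 were higher (Tax1bp1, Snx10, Skap2 and Hibadh, by 0.63, 0.54, 0.45 and 0.39) and 3 lower. Around Hoxd 1 of 12 was called, Chn1, higher by 1.90 (SE 0.06). Around Hoxc 6 of 12 were lower and 0 higher. On chromosome 15 outside the cluster 72 genes were higher and 310 lower of 738 tested, with a median difference of -0.09. Outside the Hoxa cluster 259 genes of chromosome 6 were higher and 133 lower of 1089, with a median difference of 0.06. Outside Hoxb 273 were higher and 242 lower of 1554, with a median of 0.04. Outside Hoxd 276 were higher and 263 lower of 1723, with a median of 0.03. Over all genes 18.2% were higher and 18.0% lower. The lower signal of Hoxc4 in large colonies therefore stood among many lower genes of its chromosome. The higher Hoxa signals stood on a chromosome with more higher than lower genes. The part of either in the Hox results was not tested.

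The passage comparison in untreated large colonies gave calls for 10 Hox genes and none with a 2-fold change, against 2.59% of all genes at least 2-fold higher and 1.18% lower. From passage 5 to passage 15, 4 of 37 members rose and 6 fell, against 17.4% and 18.7% of all genes (36.1% in either direction). Hoxb9 rose by 0.61 (SE 0.08, limma adjusted p 1.2e-05), Hoxa3 by 0.44 (SE 0.08, adjusted p 0.00024) and Hoxa4 by 0.34 (SE 0.09, adjusted p 0.0046). Hoxa2 was called higher by 0.18 at an adjusted p of 0.0473, and lost the call without replicates 1 or 3 of passage 5 or any replicate of passage 15 (limma adjusted p of 0.0503 to 0.196). Hoxa5 fell by 0.60 (SE 0.06, limma adjusted p 8.3e-07), Hoxd12, at low signal, by 0.38 (SE 0.08, adjusted p 0.0018) and Hoxb4 by 0.20 (SE 0.06, adjusted p 0.010).

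The remaining calls in large colonies lay close to the threshold. Hoxa7, with a change of -0.35, lost its call without replicate 2 of either passage (limma adjusted p 0.0517 and 0.0568), with changes of -0.32 and -0.31. Hoxb5, with a change of -0.30, lost it without replicate 3 of either passage (limma adjusted p 0.0503 and 0.0707), with changes of -0.28 and -0.25. Hoxd13, of the digits, was lower by 0.25 and lost it without any array of passage 5 or without replicates 1 or 2 of passage 15 (limma adjusted p of 0.0501 to 0.19), with a change of -0.15 without passage 15 replicate 1. No Hoxc gene was called, and Hoxb2, Hoxb3 and Hoxb7 changed by -0.10, -0.05 and 0.02.

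In PDGF-AB-treated small colonies more Hox genes fell than rose with passage, and Hoxb9 rose. From passage 5 to passage 15, 3 of 37 members rose and 10 fell, against 24.6% and 21.4% of all genes (46.0% in either direction). The falls were 5 of 10 Hoxa and 5 of 9 Hoxb genes. Called at least 2-fold were 1 rise and 0 falls, against 2.47% and 2.79% of all genes. Hoxb9 rose by 1.09 (SE 0.08), or 2.14-fold, with a limma adjusted p of 8.6e-09. The largest falls were 0.66 for Hoxb3, 0.56 for Hoxa3, 0.53 for Hoxb4 and 0.51 for Hoxa5, with SE of 0.06 to 0.09 and limma adjusted p of 1.8e-05 or less.

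Further falls in treated small colonies were 0.43 for Hoxb2, 0.35 for Hoxb5, 0.24 for Hoxa2, 0.35 for Hoxa7, 0.32 for Hoxb6 and 0.22 for Hoxa4. Hoxa7 and Hoxb6 lost their calls without passage 15 replicate 2 (limma adjusted p 0.077 and 0.0518), with a change of -0.22 for Hoxa7. Hoxa4 lost it without passage 5 replicates 1 or 2 or any passage 15 replicate (limma adjusted p of 0.0585 to 0.16). Hoxd8, below the guide in all groups, read 4.16, 4.01 and 4.11 at passage 5 and 4.56, 4.60 and 4.56 at passage 15. Its arrays did not overlap and it rose by 0.48 (SE 0.07, limma adjusted p 3.4e-05). Hoxb13, known from the prostate and tail end, was called higher by 0.26, and lost the call without replicates 2 or 3 of either passage (limma adjusted p of 0.0853 to 0.114). Among the 1178 receptor genes, which mark low signal, 100 were called higher and 34 lower in this comparison.

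Whether the passage change differed between untreated large and treated small colonies was tested as a difference of the 2 changes, which share no arrays. It was called for 10 of 37 members, 5 in each direction, against 18.6% and 15.9% of all genes (34.4% in either). At least 2-fold were 0 positive and 1 negative difference, against 1.41% and 2.82% of all genes. Hoxa3 rose in large and fell in treated small colonies, a difference of -1.01 (SE 0.11, limma adjusted p 3.0e-06). The same difference was -0.56 for Hoxa4, -0.42 for Hoxa2, -0.61 for Hoxb3 and -0.32 for Hoxb4. It was 0.48 for Hoxb9 (SE 0.11, limma adjusted p 0.0041), which rose more in treated small colonies, and 0.61 for Hoxd8.

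Positive differences of Hoxd11, Hoxd12 and Hoxd13 were close to the threshold, with limma adjusted p of 0.028 to 0.0333. The count of 5 positive differences was 3 without large passage 5 replicate 2 or large passage 15 replicate 1. It was 2 without treated small passage 5 replicates 1 or 2 or treated small passage 15 replicate 1. With each array centred on its median the split was 2 positive and 5 negative, and after cyclic loess it was also 2 and 5. In the same test 79 of the receptor genes had a positive and 20 a negative difference.

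Across both passage comparisons, Hoxb9 rose in both, Hoxa5, Hoxa7, Hoxb4 and Hoxb5 fell in both, and Hoxa2, Hoxa3 and Hoxa4 rose in large and fell in treated small colonies. Hoxb2, Hoxb3 and Hoxb6 fell in treated small colonies without a call in large ones, although only for Hoxb3 was the difference between the changes itself called. Hoxd12 and Hoxd13 were called lower in large and not in treated small colonies, and Hoxb13 and Hoxd8 higher in treated small and not in large ones; of these 4, the difference between the changes was not called for Hoxb13. The other 22 members were called in neither.

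**Figure D4:**
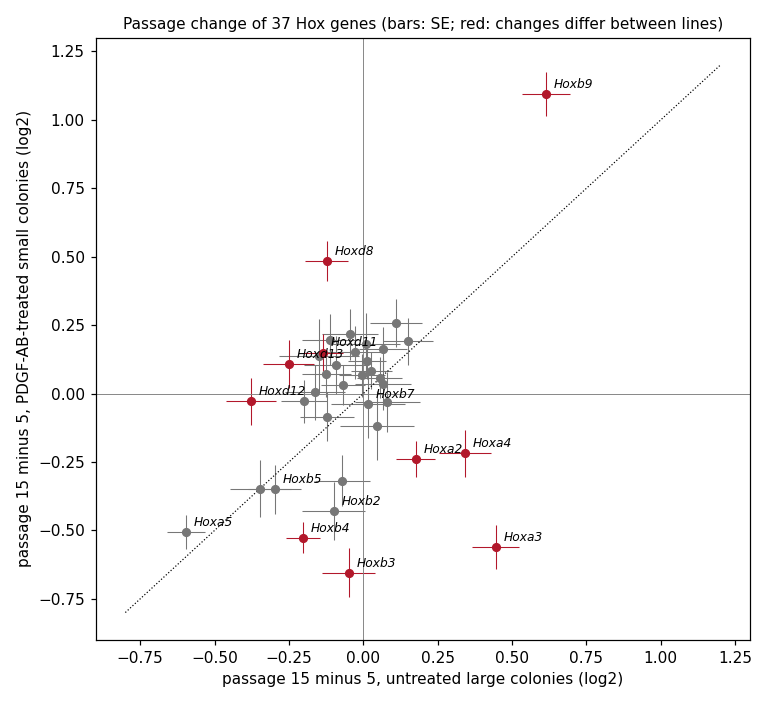
Passage 15 minus passage 5 in log2 intensity for the 37 Hox genes, with untreated large colonies on the horizontal and PDGF-AB-treated small colonies on the vertical axis. Bars are standard errors, the dotted line marks equal changes, and red points are the 10 genes whose changes differed (limma adjusted p at most 0.05). Hoxb9 stands at 0.61 and 1.09, and Hoxa3 at 0.44 and -0.56.

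PDGF-AB at passage 5 gave small shifts of Hox genes in small colonies. Of the 37 members, 5 were higher and 1 lower in treated than in untreated small colonies, against 10.7% and 18.2% of all genes (28.9% in either direction). No change reached 2-fold, against 0.411% of all genes at least 2-fold higher and 0.983% lower. Hoxa3 rose by 0.33 (SE 0.08, limma adjusted p 0.0044), and its treated and untreated arrays did not overlap. This call was the only one of the 6 kept without each array in turn.

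The other calls under PDGF-AB lay close to the threshold. Hoxb5 was higher by 0.31 and Hoxc13, a hair and nail gene, lower by 0.34. Both calls were lost without replicate 2 of the untreated group (limma adjusted p 0.0891 and 0.103) or of the treated group (0.0724 and 0.0668), with changes of 0.24 to 0.26 for Hoxb5 and -0.30 to -0.24 for Hoxc13. Hoxa5 and Hoxb4 were higher by 0.20 and 0.18, and Hoxd12 by 0.24. Hoxa5 lost its call without replicates 1 or 2 of either group (limma adjusted p of 0.0763 to 0.0979) with changes of 0.17 to 0.19, and Hoxb4 without untreated replicate 2 or treated replicates 1 or 2 (0.0699 to 0.0881) with changes of 0.16 to 0.18. Hoxd12 lost it without untreated replicates 1 or 2 or treated replicate 3 (limma adjusted p of 0.101 to 0.232), with a change of 0.14 without treated replicate 3. The count of 5 higher was 3 without untreated replicate 1, 1 without untreated replicate 2, 3 without treated replicate 1 and 2 without treated replicate 2. With arrays centred on their medians the calls were 2 higher and 1 lower, and after cyclic loess 5 higher and 2 lower. Hoxb9 and Hoxb7, which differed 9.84-fold and 2.51-fold between colony sizes, changed by -0.03 and -0.12 with PDGF-AB and were not called.

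Treated small colonies were also set against untreated large ones at each passage; these comparisons reuse the large and the treated small arrays of those above. At passage 5, 2 of 37 members were higher and 12 lower in treated small colonies, against 14.8% and 20.9% of all genes (35.7% in either direction), and 0 were at least 2-fold higher and 4 lower, against 1.62% and 2.02% of all genes. Hoxb9 was 10.1-fold lower, Hoxb5 2.81-fold, Hoxb7 2.73-fold and Hoxa5 2.40-fold, all with limma adjusted p of 8.8e-08 or less. Hoxc4 and Hoxa10 were the members that were higher, by 0.81 and 0.55, Hoxc4 at least 1.12-fold against the guide. The difference of Hoxa3, -0.27, lost its call without large passage 5 replicate 2 (-0.18, limma adjusted p 0.0785). Hoxa7 lost its call without replicates 2 or 3 of either group (limma adjusted p of 0.0592 to 0.104). Hoxd12 lost it without large replicates 1 or 3 or treated replicates 1 or 2 (0.0578 to 0.196).

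At passage 15 the same comparison gave 8 members higher and 12 lower in treated small colonies, against 29.2% and 24.2% of all genes (53.4% in either direction). At least 2-fold were 0 higher and 7 lower, against 1.26% and 3.38% of all genes. Hoxb9 was 7.21-fold lower, Hoxb5 2.91-fold, Hoxb7 2.83-fold, Hoxa3 and Hoxb3 each 2.42-fold, Hoxb2 2.35-fold and Hoxa5 2.25-fold. The SE of these differences on the log2 scale were 0.06 to 0.12. By cluster, 7 of 9 Hoxb and 5 of 10 Hoxa genes were lower, and the median difference over the Hoxb genes was -1.23. Hoxa7 was -0.31, changed to -0.47 and -0.18 without treated small replicates 1 and 2, and lost its call without large replicates 1 or 3 or treated replicates 2 or 3 (limma adjusted p of 0.0575 to 0.132).

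The members higher in late treated small colonies were Hoxa10, Hoxa11, Hoxa13, Hoxb13, Hoxc4, Hoxd8, Hoxd11 and Hoxd13, by 0.18 to 0.70. Hoxd8 and Hoxc4 (0.57 and 0.70) were called under every alternative run that tested them, the 2-fold threshold aside. Calls of Hoxa10, Hoxa11, Hoxa13 and Hoxd11 were lost without 1 array, with limma adjusted p of 0.0667 to 0.0983, 0.0539 to 0.087, 0.0828 to 0.166 and 0.0512 to 0.166. These arrays were large replicate 1 or treated replicate 2 for Hoxa10, and large replicates 2 or 3 or treated replicate 1 for Hoxa11. They were large replicates 1 or 2 or treated replicates 1 or 3 for Hoxa13, and large replicate 1 or treated replicates 1 or 3 for Hoxd11. The count of 8 was 5 without large passage 15 replicate 1 or treated small passage 15 replicate 1. The split was 4 higher and 12 lower with arrays centred on their medians and 2 higher and 11 lower after cyclic loess, and among all calls the share that was higher went from 54.6% to 36.5% with centring. Of the 1178 receptor genes 216 were higher and 17 lower in the same comparison, with a median difference of 0.08. The part of this shift of low signals in the Hox calls was not tested.

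Partners and regulators of Hox genes were followed as lists. Shares of all genes called higher and lower, for reading the list counts, were 17.4% and 18.7% with passage in large colonies and 24.6% and 21.4% with passage in treated small ones. They were 18.2% and 18.0% in large against untreated small colonies at passage 5, and 10.7% and 18.2% with PDGF-AB. Among 10 tested TALE partners, 8 were higher and 1 lower at passage 15 in large colonies, and Pknox2, Pbx3 and Meis1 rose by 0.82, 0.66 and 0.62. In treated small colonies 2 rose and 3 fell with passage, Meis1 by 0.34, and the difference between the Meis1 changes was -0.95 (SE 0.11, limma adjusted p 4.8e-06). Between large and untreated small colonies 3 were higher and 4 lower. Pknox2 read 6.75 ± 0.08 in large and 8.31 ± 0.02 in small colonies at passage 5 (SD, n = 3), a difference of -1.56 in the direction opposite to Hoxb9. PDGF-AB moved 1 up and 1 down.

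Of 17 tested genes of retinoic acid control, 7 were higher and 1 lower in large than in untreated small colonies at passage 5, against 18.2% and 18.0% of all genes. Aldh1a3, which makes retinoic acid, was higher by 5.89 on the log2 scale, Cyp26b1, which breaks it down, by 3.67, and the receptor gene Rarb, itself induced by retinoic acid, by 0.81. Aldh1a2, which also makes retinoic acid, was at 4.25 ± 0.07 (SD, n = 3) in untreated small colonies, below the low-signal guide, and at 9.18 ± 0.04 in large colonies. With the guide in place of the small-colony level, large colonies were at least 21.0-fold higher than untreated small ones. With passage in large colonies 5 genes of the list rose and 4 fell, against 17.4% and 18.7% of all genes. Aldh1a3, Cyp26b1 and Aldh1a1 fell by 2.22, 2.14 and 2.03, and the mean of Aldh1a2 went from 9.18 to 7.07. Dhrs3 had the largest rise of the list, 1.90, and Stra6, a retinol transporter, rose by 1.78. Across those passages Hoxa5 and Hoxb4 fell while Hoxb9, Hoxa3 and Hoxa4 rose. PDGF-AB raised Cyp26b1 by 1.33 (SE 0.08) in small colonies, where 5 genes of the list rose and 2 fell, against 10.7% and 18.2% of all genes. In treated small colonies 4 rose and 6 fell with passage, Aldh1a1 by 1.87, against 24.6% and 21.4% of all genes.

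Ezh2, a Polycomb methyltransferase gene, rose with passage by 1.60 (SE 0.07) in large and by 2.05 (SE 0.07) in treated small colonies. It was lower by 0.86 with PDGF-AB at passage 5. Means of its relative Ezh1 went the other way with passage, from 8.55 to 8.19 in large and from 8.08 to 7.56 in treated small colonies. Of 28 tested Polycomb genes, 9 rose and 5 fell in large and 8 rose and 10 fell in treated small colonies, where 36.1% and 46.0% of all genes were called in either direction. Pcgf5 fell in both, by 0.61 and 1.28, and was higher by 0.97 in large than in untreated small colonies, where 4 of the list were higher and 6 lower. With PDGF-AB 2 rose and 3 fell. Of 10 Trithorax and demethylase genes 6 rose with passage in each, with 1 lower in large colonies, against rises in 17.4% and 24.6% of all genes, and Dpy30 rose by 0.62 and 0.73. In large against untreated small colonies 1 was higher and 3 lower, Kdm6a by 0.51, and with PDGF-AB 1 rose and 4 fell.

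Of 9 tested upstream regulators, 1 was higher and 2 lower in large than in untreated small colonies. Gata4, a factor of the developing heart, read 6.21 ± 0.27 in large and 8.83 ± 0.09 in small colonies (SD, n = 3), a difference of -2.62. Egr2, which acts on Hoxa2 and Hoxb2 in the hindbrain, rose by 1.17 with PDGF-AB and fell by 1.30 with passage under PDGF-AB. With passage 4 of the list rose and 2 fell in large and 3 rose and 3 fell in treated small colonies, and with PDGF-AB 2 rose and 2 fell. In those comparisons 36.1%, 46.0% and 28.9% of all genes were called in either direction. Of 8 other homeobox genes (Evx1, Evx2, Gsx1, Gsx2, Pdx1, Gbx1, Gbx2 and Mnx1), limma called 0 with passage in large colonies, with 1 at an unadjusted p under 0.05. It called 1 higher in large than in untreated small colonies, 2 higher with PDGF-AB and 2 higher with passage in treated small colonies, and 0 lower in these. In late treated small against large colonies 6 of these 8 were higher, Gbx2 by 0.82, against 29.2% of all genes. In the same comparison 216 of the 1178 receptor genes were higher, only 5 of the 8 genes were above the low-signal guide in every group, and centring lowered the higher share of all calls as given above. The part of this shift in the calls was not tested.

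Of 10 tested non-coding transcripts of the clusters, Hoxaas2 had the clearest values. It is annotated antisense and overlaps Hoxa3, and since the sources used here do not say whether the labelling kept strands apart, its signal and that of Hoxa3 may share RNA. It read 6.88 ± 0.07 and 6.73 ± 0.08 in large colonies at passages 5 and 15, 6.31 ± 0.17 in untreated small, 6.64 ± 0.14 in treated small and 5.36 ± 0.10 in late treated small colonies (SD, n = 3). Large exceeded untreated small colonies by 0.58, and passage under PDGF-AB lowered it by 1.27 (SE 0.09, limma adjusted p 3.7e-09). The late treated arrays were the lowest for Hoxaas2 as for Hoxa3, but Hoxaas2 changed by -0.16 with passage in large colonies, where Hoxa3 rose. Mir10a, whose gene lies in the Hoxb cluster, fell by 0.41 with passage in treated small colonies at levels below the guide, and 7 of the 10 transcripts were below it in every group.

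Altogether 23 of the 37 Hox genes were called in at least 1 of the 7 comparisons, against 76.9% of all genes. The 14 called in none were Hoxa6, Hoxa9, Hoxb1, 6 Hoxc genes (Hoxc5, Hoxc6 and Hoxc9 to Hoxc12) and 5 Hoxd genes (Hoxd1, Hoxd3, Hoxd4, Hoxd9 and Hoxd10). Of these Hoxa6 and Hoxb1 were above the low-signal guide throughout, with levels of 6.25 to 6.80 and 5.68 to 6.22 over the 15 arrays.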

How the data were processed

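RNA of the 15 samples of cultured mouse cells was labelled with an Affymetrix WT kit, per the labels' protocols. The deposited values are log2 intensities made with RMA, per the submitters' processing notes, which also name limma; the authors' versions and array build are not given in the sources used here. Of 28853 probe sets, 23410 were listed in the platform annotation, 21789 with 1 gene and 1621 with several, which were left out. One probe set, that with the highest mean over the arrays, was kept for each of 19938 genes. Groups were compared with limma 3.58.1 in R 4.3.3 on all 15 arrays (a mean per group, 10 residual degrees of freedom), 2-sided, with Benjamini-Hochberg adjustment over all genes in each of the 7 comparisons and a threshold of 0.05. The code was tested on simulated data. The number of arrays limits the precision.

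The members and lists were chosen with earlier results of these data known. Members called with a change of at least 1 on the log2 scale in any comparison have every array printed; of other lists, up to 4 members with the smallest adjusted p were named. Promoters came from RefSeq on GRCm38.p6; homeodomains were planned but protein sequences were not used here. Hoxc4, Hoxa10 and Hoxd8 arrays, Hoxaas2, some list members and markers were picked after their values were seen. Alternatives covered scaling, probe sets, low values, arrays in the fit, variance moderation, array weights, a replicate block, thresholds and leaving out each array.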

Additional observations from a re-analysis of the deposited data

Results flagged for a closer look

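The passage change (passage 15 minus passage 5) differed between PDGF-AB-treated small and untreated large colonies for 10 of the 37 Hox genes. Limma's test of that difference called 34.4% of all genes, 18.6% with a positive and 15.9% with a negative difference. The difference is given as the change in treated small minus the change in large colonies on the log2 scale. It was negative for Hoxa2 (-0.42), Hoxa3 (-1.01), Hoxa4 (-0.56), Hoxb3 (-0.61) and Hoxb4 (-0.32). It was positive for Hoxb9 (0.48), Hoxd8 (0.61), Hoxd11 (0.29), Hoxd12 (0.35) and Hoxd13 (0.36). For Hoxa2, Hoxa3 and Hoxa4 the changes had opposite signs, 0.18, 0.44 and 0.34 in large against -0.24, -0.56 and -0.22 in treated small colonies. The Hoxa2 rise in large and the Hoxa4 fall in treated small colonies each lost the call without 5 arrays in turn. Signs were also opposite for Hoxd8, Hoxd11 and Hoxd13, -0.12, -0.14 and -0.25 in large against 0.48, 0.15 and 0.11 in treated small colonies. Of these, only the Hoxd8 rise and the Hoxd13 fall were called. For Hoxb3, Hoxb4, Hoxb9 and Hoxd12 the signs were the same and the sizes differed. Colony size and PDGF-AB cannot be told apart in this difference. The calls of Hoxd11, Hoxd12 and Hoxd13 were lost with arrays centred on their medians and after cyclic loess, and without 5, 6 and 8 of the 12 arrays in turn (limma adjusted p of 0.0515 to 0.0944).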

How the results depend on the processing

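Of 89 calls of a Hox gene in a comparison, 61 held under every alternative that tested them, other than the stricter thresholds. Another 28 were lost under at least 1, and 27 of the 89 had a limma adjusted p above 0.01. The setting that dropped genes under the median level did not test some of the 61. Among these were Hoxc4 and Hoxa10 in large against untreated small colonies at passage 5. Hoxd11 in treated small against large colonies at passage 15 turned to -0.0032 after cyclic loess. Leaving out each array in turn gave, as higher and lower calls, 3 to 4 and 4 to 6 for passage in large colonies, 12 to 13 and 2 for large against small at passage 5, 1 to 5 and 0 to 1 for PDGF-AB, 3 to 4 and 7 to 10 for passage in treated small colonies, 2 and 10 to 11 for treated small against large at passage 5, 5 to 10 and 11 to 12 at passage 15, and 2 to 5 and 5 to 6 for the difference of passage changes.

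Counts moved by over 1.5 times under these settings. With arrays centred on their medians, higher calls were 2 for PDGF-AB, 4 for treated small against large at passage 15 and 2 for the difference of changes. After cyclic loess, lower calls were 2 for PDGF-AB, and higher calls were 2 for passage 15 and 2 for the difference. When genes under the median level were dropped, lower calls were 0 for large against small and 0 for PDGF-AB. Higher calls were then 0 for treated small against large at passage 5, 0 at passage 15 and 1 for the difference. With only the compared arrays, 3 were higher with PDGF-AB, and with array weights 5 rose with passage in treated small colonies. Among changes of at least 2-fold, higher and lower calls were 0 and 0 for passage in large colonies, 4 and 0 for large against small, 0 and 0 for PDGF-AB, 1 and 0 for passage in treated small colonies, 0 and 4 and then 0 and 7 for treated small against large at passages 5 and 15, and 0 and 1 for the difference. Except where the setting itself removed genes, arrays or smaller changes, the cause was not tested.

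Replicate numbers are shared by the groups, but their deviations did not meet the rule for pairing. The rule asked for a correlation above 0.1 for every replicate number. Passage of large colonies missed it narrowly, with a lowest correlation of 0.0984, and there 6 of 6 arrays correlated best with their own number. Lowest correlations were -0.277 to 0.0026 in the other 5 comparisons. The replicate block gave each number 1 effect shared by all groups, so a pairing within large colonies alone was not tested. With the replicate block the counts were 3 higher and 7 lower for passage in large colonies, 14 and 2 for large against small, 5 and 1 for PDGF-AB, 3 and 9 for passage in treated small colonies, 2 and 12 and then 8 and 12 for treated small against large at passages 5 and 15, and 5 and 5 for the difference. Hoxa2 in passage of large colonies and Hoxa4 in passage of treated small colonies lost their calls under the block.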
